A study of Mus musculus with 8 samples.

Results

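The hormones and carrier proteins that hepatocytes release into blood were followed in primary mouse hepatocytes that lack Lcmr1 (Med19 in the deposited table), part of the Mediator complex, which links transcription factors to RNA polymerase II. The set holds 9 genes, Igfbp1, Igfbp2, Igfbp4, Fgf21, Gdf15, Angptl4, Fgl1, Lect2 and Agt, taken by name from the 27277 genes of the deposited RNA table, together with the chromatin immunoprecipitation (ChIP) regions over them. Knockout (KO) cells carried the floxed Lcmr1 allele with albumin-cre, a recombinase driven by the hepatocyte albumin promoter, and control cells carried the floxed allele without it. RNA was sequenced in 3 KO and 3 control libraries and ChIP in 1 KO and 1 control library. All cells were cultured for 24 h and received 100 nM glucagon, a hormone of fasting, for 12 h, so no library shows these genes without glucagon. The labels used here state neither the age nor the sex of the mice, nor whether libraries came from separate animals; the p-values therefore reflect the spread among these libraries alone, which may be technical.

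Insulin-like growth factor (IGF) binding proteins carry IGFs in blood and limit their access to receptors, and Igfbp1 and Igfbp2 are best known as liver products that respond to insulin and fasting. FGF21 and GDF15 are stress and fasting hormones that act on distant tissues, ANGPTL4 inhibits lipoprotein lipase, and angiotensinogen, the product of Agt, is the precursor from which renin releases angiotensin peptides. FGL1 and LECT2 are hepatocyte-secreted proteins with reported roles in metabolism and immunity. Transcription of several of these genes is known to be set by hormones and nutrients, through factors such as PPAR alpha (Angptl4 and Fgf21), ATF4 (Fgf21 and Gdf15) and FOXO1 (Igfbp1).

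The 250 bases before the RefSeq start of 4 of the genes show the promoters on which the later results bear. They are printed 5′ to 3′ on the coding strand, from RefSeq on GRCm38.p6, the build that mm10 names. Windows were found for 7 of the 9 genes, and none is shown for Angptl4 and Fgl1. Capitals mark matches, on either strand, to TATAAA (the TATA box), TGACG (the core of a cyclic AMP response element), TGTTTAC (forkhead), TGATGNAA (the composite element of C/EBP and ATF factors), AGGTCA (a nuclear receptor half-site) or TTGCNNAA (C/EBP). Igfbp1 and Igfbp4 are shown because control ChIP regions lie over their starts, Igfbp2 because it had the largest fold change of the set, and Fgf21 because its stress-responsive start holds 3 of the motifs.
Igfbp1, chr11:7197537-7197786, plus strand: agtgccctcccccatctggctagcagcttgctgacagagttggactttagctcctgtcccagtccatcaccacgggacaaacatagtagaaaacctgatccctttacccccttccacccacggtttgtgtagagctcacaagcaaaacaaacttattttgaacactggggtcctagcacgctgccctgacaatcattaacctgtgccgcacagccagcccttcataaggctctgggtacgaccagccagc
Igfbp2, chr1:72824230-72824479, plus strand: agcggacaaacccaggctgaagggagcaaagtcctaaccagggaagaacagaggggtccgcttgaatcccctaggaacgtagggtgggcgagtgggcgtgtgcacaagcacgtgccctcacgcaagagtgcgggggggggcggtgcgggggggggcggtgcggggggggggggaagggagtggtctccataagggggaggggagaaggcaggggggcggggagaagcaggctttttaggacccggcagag
Igfbp4, chr11:99040994-99041243, plus strand: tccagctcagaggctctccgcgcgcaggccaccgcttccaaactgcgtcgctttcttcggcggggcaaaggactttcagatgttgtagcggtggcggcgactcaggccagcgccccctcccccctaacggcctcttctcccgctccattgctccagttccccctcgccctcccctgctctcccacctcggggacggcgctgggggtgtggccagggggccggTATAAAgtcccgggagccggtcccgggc
Fgf21, chr7:45615491-45615740, minus strand: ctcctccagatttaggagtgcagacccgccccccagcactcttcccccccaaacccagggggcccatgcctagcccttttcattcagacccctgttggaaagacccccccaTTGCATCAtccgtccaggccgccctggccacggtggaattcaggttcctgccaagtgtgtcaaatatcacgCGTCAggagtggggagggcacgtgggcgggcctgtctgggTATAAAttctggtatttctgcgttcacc

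The Igfbp4 window holds TATAAA, from base -28 to base -23 before the start, and the Fgf21 window holds it at the same place. The Agt window, not printed, holds it from base -30 to base -25. The Fgf21 window also holds a match to TGATGNAA, from base -139 to base -132 and read on the opposite strand, and 1 to TGACG, from base -68 to base -64. The first Gdf15 window holds 1 match to AGGTCA. None of the 6 motifs was matched letter for letter in the Igfbp1 window, in either Igfbp2 window, in the second Gdf15 window or in the Lect2 window. Variants of these letters were not searched, so a window without a match can still hold a forkhead or other site. Among 32851 promoter windows of 250 bases in the RefSeq table, 12.4% hold TATAAA, 17.8% TGACG, 3.17% TGTTTAC, 3.45% TGATGNAA, 14% AGGTCA and 9.56% TTGCNNAA. A match is a run of letters and not a measured binding site.

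Libraries held 22191786 to 26595249 gene counts. Med19 had 2.91, 5.27 and 3.02 counts-per-million units (CPM, scaled to TMM-adjusted library sizes, which set the bulk of genes equal between libraries) in KO libraries, against 7.50, 10.8 and 13.4 CPM in control libraries, a log2 fold change of -1.50 (SE 0.31, edgeR quasi-likelihood adjusted p = 0.0120, and 0.0505 without KO replicate 1). The count covers the whole gene, so it does not show the deleted part alone. Control replicate 1 stood apart, with 117 of 15135 tested genes at least 4-fold above both other controls and 52 at least 4-fold below both, whereas control replicates 2 and 3 had 0 such genes. KO replicate 3 had 1 gene above and 19 below. Hepatocyte markers were abundant in all 6 libraries, with a summed level of 30320 to 39830 CPM in KO and 112900 to 118200 CPM in control libraries. At an edgeR adjusted p under 0.05, 9 of 10 fell, where 13.0% of all tested genes fell. Of 14 macrophage markers 10 rose, where 12.6% of all tested genes rose. The 14 markers summed to 849 to 1003 CPM in KO and 440 to 523.6 CPM in control libraries, and none of them was at 0. In bulk RNA, fewer cells of a type and less RNA per cell cannot be told apart.

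Across the 9 genes, the IGF binding protein genes Igfbp2 and Igfbp4 fell in KO hepatocytes and none of the 9 rose (at an unadjusted p under 0.05, 4 were lower and 0 higher, and with DESeq2 2 fell and 0 rose). All 9 passed the filter on low counts. Over all 15135 genes tested, 13.0% fell and 12.6% rose at an edgeR adjusted p under 0.05 (1960 and 1905 genes, against 617 and 7711 scaled by library size only). KO and control libraries did not overlap for Igfbp1, Igfbp2, Igfbp4 and Fgl1, and 45.9% of all tested genes had no such overlap. The number of members that fell rests on control replicate 1: without it 6 fell, Igfbp1, Gdf15, Fgl1 and Lect2 joining, against 16.0% of the 15741 genes then tested, and none rose.

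**Figure D1:**
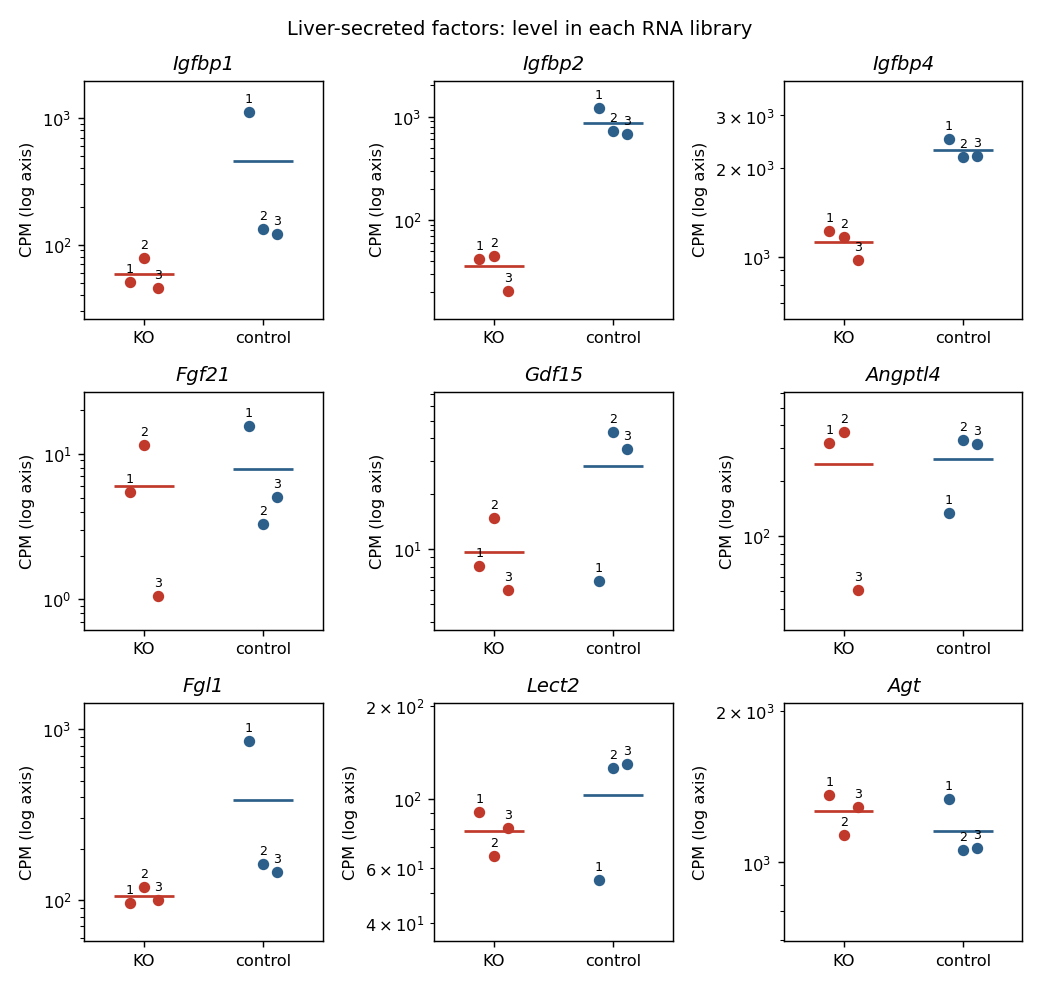
Level of each of the 9 genes in every RNA library, in CPM on a log axis, with KO libraries on the left and control libraries on the right; points are libraries numbered by replicate and lines are group means. Igfbp1, Igfbp2, Igfbp4 and Fgl1 are lower in all 3 KO libraries than in any control. Control replicate 1 lies far above the other controls for Igfbp1 and Fgl1 and far below them for Gdf15.

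Igfbp2 had the largest fold change of the set. It had 41.7, 44.7 and 20.4 CPM in KO libraries, from 1292, 1407 and 654 counts, against 1199, 721 and 679 CPM in control libraries, from 24622, 15126 and 12602 counts. Every KO library lay far below every control, and the highest library of a group was 2.19 times the lowest among KO and 1.77 times among control libraries. Igfbp2 (ENSMUSG00000039323, chromosome 1, 72824503 to 72852474, mm10, plus strand) was 24.3-fold lower in KO cells, with a log2 fold change of -4.61 (SE 0.40; adjusted p from edgeR = 0.000687), the 104th largest absolute value of the 15135. The call held under every alternative, between -4.01 with library size alone and -4.82 without KO replicate 2.

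Igfbp4 fell less far than Igfbp2. This binding protein is made by many cell types and is cleaved by a plasma metalloproteinase to free IGFs. It had 1224, 1170 and 972 CPM in KO libraries against 2494, 2176 and 2189 CPM in control libraries. The groups were well separated and each varied little. Its log2 fold change was -1.03 (SE 0.13; adjusted p from edgeR = 0.00193), a 2.04-fold lower level in KO cells of Igfbp4 (ENSMUSG00000017493, chromosome 11, 99041244 to 99054392, plus strand). With library size alone it was -0.44 (edgeR adjusted p = 0.0144), a scaling that moves the median of all genes up by 0.588. Hepatocyte markers fell in the same libraries with a median log2 fold change of -1.14, and their part in the lower Igfbp2 and Igfbp4 levels was not tested.

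Igfbp1, the binding protein whose blood level rises in fasting and falls with insulin, had a fold change whose size rests on 1 library. It had 50.6, 78.9 and 45.9 CPM in KO libraries against 1114, 132 and 122 CPM in control libraries. The control range was 9.16-fold, and control replicates 2 and 3 lay closer to the KO libraries than to control replicate 1. Its log2 fold change was -2.96 (SE 1.00; adjusted p from edgeR = 0.0842), so Igfbp1 (ENSMUSG00000020429, chromosome 11, 7197782 to 7202546, plus strand) did not pass. Without control replicate 1 it fell by 1.12 (log2; edgeR adjusted p = 0.0124). In the authors' deposited table Igfbp1 has a log2 fold change of -2.98 and no p-value.

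Ratios of counts within a library do not move with the scaling between libraries. The log2 ratio of Igfbp4 over Igfbp2 was 4.87, 4.71 and 5.57 in KO libraries against 1.06, 1.59 and 1.69 in control libraries, a difference of 3.61. The log2 ratio of Igfbp1 over Igfbp2 was 0.28, 0.82 and 1.17 in KO libraries against -0.11, -2.45 and -2.48 in control libraries, a difference of 2.44. For both ratios the groups did not overlap, and the exact two-sided permutation p was 0.1, the smallest that 3 against 3 libraries allow (0.25 after adjustment over 5 ratios). Igfbp1 over Igfbp4 was -4.60, -3.89 and -4.41 in KO libraries against -1.16, -4.04 and -4.17 in control libraries, and these groups overlapped (a difference of -1.17, exact permutation p = 0.3, adjusted 0.5). Without control replicate 1 that difference was -0.19 and the difference for Igfbp1 over Igfbp2 was 3.22.

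**Figure D2:**
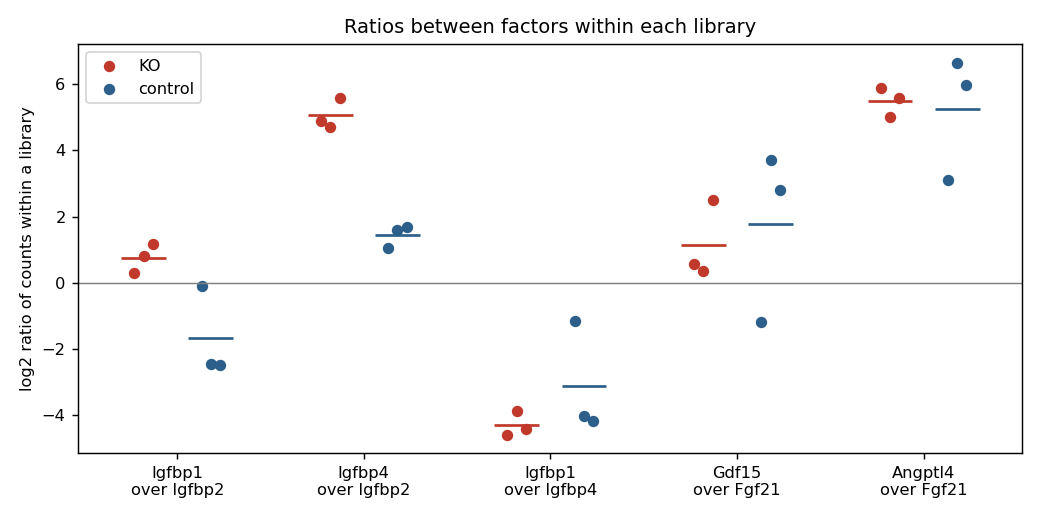
Log2 ratio of the counts of 2 genes within each library, with KO libraries left of control libraries for each pair; points are libraries and lines are group means. The Igfbp4 over Igfbp2 ratio lies between 4.71 and 5.57 in KO libraries and between 1.06 and 1.69 in control libraries, while the ratios to Fgf21 and that of Igfbp1 over Igfbp4 overlap.

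The other members of the IGF axis did not move as 1 group. Igf1, the growth factor itself, fell to 155 ± 43.7 CPM in KO libraries, against 476 ± 64.2 CPM in control libraries (SD, n = 3, log2 fold change -1.62, edgeR adjusted p = 0.00245). The growth hormone receptor gene Ghr, which drives Igf1, fell by 1.05 (log2; edgeR adjusted p = 0.0131, and 0.127 with library size alone or 0.0536 without KO replicate 1). Igf2r, the receptor that clears IGF2 and carries lysosomal enzymes, rose by 0.83 (edgeR adjusted p = 0.00503). Igfals, which stabilises the circulating IGF complex, had a log2 fold change of -0.18 and Igfbp3, the main plasma carrier, of 0.53 (edgeR adjusted p = 0.409 and 0.275). Of 9 tested genes of this list 1 rose and 2 fell, where 12.6% of all tested genes rose and 13.0% fell. The list median was 0.34, against 0.01 over all genes.

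Fgf21 and Gdf15, the stress hormones, varied widely within each genotype. Fgf21 (ENSMUSG00000030827, chromosome 7, 45613886 to 45615490, minus strand) had 5.42, 11.5 and 1.06 CPM in KO libraries against 15.4, 3.29 and 5.01 CPM in control libraries. The counts behind these values were low, 168, 362 and 34 in KO and 317, 69 and 93 in control libraries. The groups overlapped and the KO range was 10.9-fold (log2 fold change -0.40, SE 0.91, edgeR adjusted p = 0.778). The sign turned with library size alone (0.20), without KO replicate 3 (0.08) and without control replicate 1 (0.53).

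Gdf15 (ENSMUSG00000038508, chromosome 8, 70629393 to 70632456, minus strand) had 8.10, 14.7 and 6.02 CPM in KO libraries against 6.72, 43.1 and 35.2 CPM in control libraries. Control replicate 1 lay among the KO libraries and the other controls lay above all of them. Its log2 fold change was -1.56 (SE 0.71; adjusted p from edgeR = 0.160). Without control replicate 1 Gdf15 fell by 2.03 (edgeR adjusted p = 0.0116). Within libraries, the log2 ratio of Gdf15 over Fgf21 was 0.58, 0.35 and 2.49 in KO libraries against -1.20, 3.70 and 2.81 in control libraries, with overlapping groups (exact permutation p = 0.8, adjusted 1).

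Angptl4 (ENSMUSG00000002289, chromosome 17, 33773750 to 33781575, minus strand) had 322, 366 and 51.1 CPM in KO libraries against 133, 333 and 318 CPM in control libraries. KO replicate 3 was the lowest library and control replicate 1 the next lowest, and the other 4 lay close together. Its log2 fold change was -0.08 (SE 0.75; adjusted p from edgeR = 0.946), and its sign turned under several alternatives. KO replicate 3 was also the lowest library for Fgf21, as it was for Igfbp1, Igfbp2, Igfbp4 and Gdf15. The log2 ratio of Angptl4 over Fgf21 was 5.89, 4.99 and 5.57 in KO libraries against 3.10, 6.65 and 5.98 in control libraries, and these overlapped (exact permutation p = 1, adjusted 1).

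Fgl1, a fibrinogen-related hepatocyte product that is raised in the acute phase, followed the same layout as Igfbp1. It had 96.3, 119 and 100 CPM in KO libraries against 847, 162 and 146 CPM in control libraries. The 3 KO libraries lay below all controls, and control replicate 1 was more than 5 times as high as the other controls. Fgl1 (ENSMUSG00000031594, chromosome 8, 41191434 to 41215156, minus strand) had a log2 fold change of -1.87 (SE 0.75; adjusted p from edgeR = 0.125), and fell by 0.56 without control replicate 1 (edgeR adjusted p = 0.00835).

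Lect2 (ENSMUSG00000021539, chromosome 13, 56542464 to 56548502, minus strand) had 91.1, 65.6 and 80.6 CPM in KO libraries against 54.7, 126 and 130 CPM in control libraries. Control replicate 1 was the lowest of all 6, and the other controls were the highest. Its log2 fold change was -0.39 (SE 0.32; adjusted p from edgeR = 0.412), with -0.70 and an edgeR adjusted p of 0.00579 without control replicate 1 and a turned sign of 0.19 with library size alone.

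Agt was abundant in every library. It had 1365, 1137 and 1289 CPM in KO libraries against 1335, 1061 and 1069 CPM in control libraries. The groups overlapped, and the highest library was 1.20 times the lowest among KO and 1.26 times among control libraries. Agt (ENSMUSG00000031980, chromosome 8, 124556534 to 124569706, minus strand) had a log2 fold change of 0.13 (SE 0.14; adjusted p from edgeR = 0.515). With library size alone it rose by 0.73 (edgeR adjusted p = 0.00283), close to the 0.588 by which that scaling shifts all genes. In the same libraries Alb, the albumin gene, fell by 2.21 (log2; edgeR adjusted p = 0.000440).

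**Figure D3:**
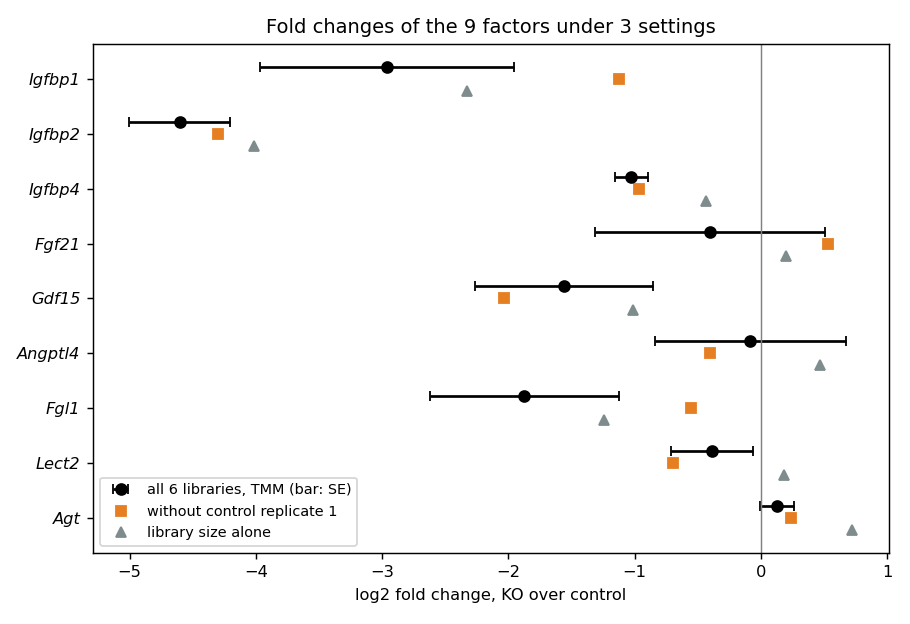
Log2 fold change, KO over control, of each of the 9 genes from all 6 libraries with TMM scaling (circles, bars are SE), without control replicate 1 (squares) and scaled by library size alone (triangles). Igfbp2 and Igfbp4 lie below 0 in all 3 settings, and Igfbp1 and Fgl1 move most when control replicate 1 is left out.

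Over the receptors and partners of the other hormones, the genes moved in mixed directions. Of 5 tested FGF receptor and co-receptor genes, Fgfr1 rose to 91.3 ± 14.6 CPM in KO libraries, against 21.1 ± 7.96 CPM in control libraries (SD, n = 3, log2 fold change 2.12, edgeR adjusted p = 0.00239), and Klb, the co-receptor FGF21 needs, rose by 0.61 (edgeR adjusted p = 0.0102). Fgfr2 fell by 1.22 (edgeR adjusted p = 0.00221). Fgfr4, the main hepatocyte FGF receptor, had -0.07 (edgeR adjusted p = 0.723) and 0.52 with library size alone (edgeR adjusted p = 0.0245). Macrophage markers rose in the same libraries. Endothelial markers had 1 riser among 10, Lyve1 (log2 fold change 2.18), near the 12.6% of all tested genes that rose. At an unadjusted p under 0.05 (edgeR), 5 rose and 0 fell, where 5990 of 15135 genes passed in either direction. With replicate number added to the fit, 4 of these endothelial markers rose, where 1713 of all tested genes rose. Their median in the main fit was 0.35. Their summed level was 345 to 528 CPM in KO and 294 to 364 CPM in control libraries. Of 12 stellate cell and fibroblast markers 1 rose and 0 fell, with a median of 0.50. At an unadjusted p under 0.05 (edgeR), 4 of them rose and 0 fell, and 2 rose with replicate number added to the fit. The 12 markers summed to 253 to 300 CPM in KO and 129 to 262 CPM in control libraries. The part of these cell types in the receptor changes was not tested.

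Among 13 genes of lipoprotein lipase control, 6 fell and 1 rose, where 13.0% of all tested genes fell and 12.6% rose. The one that rose was Lpl, the lipase that ANGPTL4 inhibits, at 121 ± 9.91 CPM in KO libraries against 13.4 ± 0.92 CPM in control libraries (SD, n = 3, log2 fold change 3.18, edgeR adjusted p = 5.09e-05). Apoc3, another brake on triglyceride clearance, fell by 1.52 (edgeR adjusted p = 0.000613). The others that fell, named after their values were seen, were Pcsk6, Apoa5, Furin, Lipc and Lmf1. Angptl8, a lipase inhibitor that responds to feeding, did not pass at -0.54 on the log2 scale (adjusted p = 0.141, edgeR). Macrophages also make Lpl, and 10 of 14 macrophage markers rose in these libraries; their part in the Lpl rise was not tested.

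In the renin-angiotensin system, 1 of 9 tested genes rose by edgeR, a share near the 12.6% of all tested genes that rose. None fell, against 13.0% of all tested genes (1 fell at an unadjusted p under 0.05, and 0 with DESeq2). The gene that rose was Ren1, which had 18, 25 and 27 counts in KO libraries against 4, 0 and 0 counts in control libraries (edgeR adjusted p = 0.0232). The call ended when any 1 library other than control replicate 1 was left out (0.0613 to 0.0702, edgeR adjusted). The angiotensin receptor gene Agtr1a had a log2 fold change of 0.14 and the converting enzyme gene Ace of 0.02 (edgeR adjusted p = 0.534 and 0.970).

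The next lists hold regulators of these hormones and their targets, and their counts stand against the 12.6% of all tested genes that rose and the 13.0% that fell. Of 17 PPAR alpha genes 5 fell and none rose by edgeR (1 rose at an unadjusted p under 0.05, and 1 with DESeq2), with a median log2 fold change of -0.65. Fabp1, the fatty acid carrier, fell to 108 ± 65.9 CPM in KO libraries, against 2243 ± 714 CPM in control libraries (SD, n = 3, log2 fold change -4.38, edgeR adjusted p = 0.0031), and Rxra, the partner of PPAR alpha, fell by 1.18 (edgeR adjusted p = 0.00151). Ppara itself had -0.65 and Creb3l3, a fasting factor that acts on Fgf21, had -0.22 (edgeR adjusted p = 0.137 and 0.557). Without control replicate 1 Ppara passed at -0.89 (edgeR adjusted p = 0.0211).

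Of 15 tested genes of the integrated stress response 4 fell and 2 rose, with a median of -0.66. Without control replicate 1 that median was -0.27, over 16 tested genes. The number that fell was 1 without KO replicate 1, 2 without KO replicate 2 or KO replicate 3, and 6 without control replicate 1 or with DESeq2. Ddit4 rose by 2.24 and Sesn2 by 1.33 (edgeR adjusted p = 0.000675 and 0.00277), both inhibitors of mTOR signalling. Ddit3, which encodes CHOP, had -2.31 and Atf4 -0.79 (edgeR adjusted p = 0.0533 and 0.0986), and both passed with DESeq2 on all 6 libraries (adjusted p = 0.00682 and 0.0343). Both also passed without control replicate 1, at -1.24 and -0.33, and Ddit3 passed at -2.65 without control replicate 2 and at -2.67 without control replicate 3. Of 10 p53 target genes 1 rose, Phlda3 (log2 fold change 1.78, edgeR adjusted p = 0.0497), a share near that of all genes. The Phlda3 call ended with no count filter (0.0556, edgeR adjusted) and without each of KO replicates 1, 2 and 3 and control replicate 2. Trp53 had 0.24 (edgeR adjusted p = 0.227), and passed at 0.37 without control replicate 1 (0.0353) and at 0.84 with library size alone (0.00142). Without control replicate 1, 4 p53 target genes rose and 1 fell, where 15.3% of all genes then tested rose and 16.0% fell.

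Of 14 FOXO1 and cyclic AMP targets 2 fell and 1 rose, shares near or below those of all genes; without 1 library, 1 to 2 fell (1 without KO replicate 1) and 0 to 3 rose (3 without control replicate 1). Pck1 fell by 1.30 and Tat by 0.95 (edgeR adjusted p = 0.00167 and 0.0106); for Tat the p was 0.106 with library size alone and 0.0507 without KO replicate 1. Foxo1 had -0.21 (edgeR adjusted p = 0.205), which turned to 0.38 with library size alone. Of 22 other hepatocyte-secreted hormone genes 11 fell and 2 rose, with a median of -0.48. Without KO replicate 2, 7 fell and 1 rose, and 1 rose without any other single library except control replicate 1. Rbp4, the plasma retinol carrier, fell to 1582 ± 106 CPM in KO libraries, against 4018 ± 334 CPM in control libraries (SD, n = 3, log2 fold change -1.34, edgeR adjusted p = 0.000507). Hamp2, a hepcidin gene, rose, with 223, 137 and 275 counts in KO libraries against 5, 1 and 2 in control libraries (edgeR adjusted p = 0.000535). Hamp, the other hepcidin gene, named after its values were seen, fell to 252 ± 65.2 CPM in KO libraries, against 745 ± 408 CPM in control libraries (SD, n = 3, log2 fold change -1.57, edgeR adjusted p = 0.0296). These are closely related copies, so how reads were split between them is uncertain. With library size as the sole scaling, 6 of these 22 fell and 3 rose. That scaling also moved the other lists upward: 4 rose and 1 fell in the IGF system, 3 and 1 among FGF receptors, 3 and 3 in lipase control, 6 and 0 in the renin-angiotensin system, 4 and 5 among PPAR alpha genes, 4 and 1 in the stress response, 5 and 0 among p53 targets and 9 and 1 among FOXO1 and cyclic AMP targets.

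**Figure D4:**
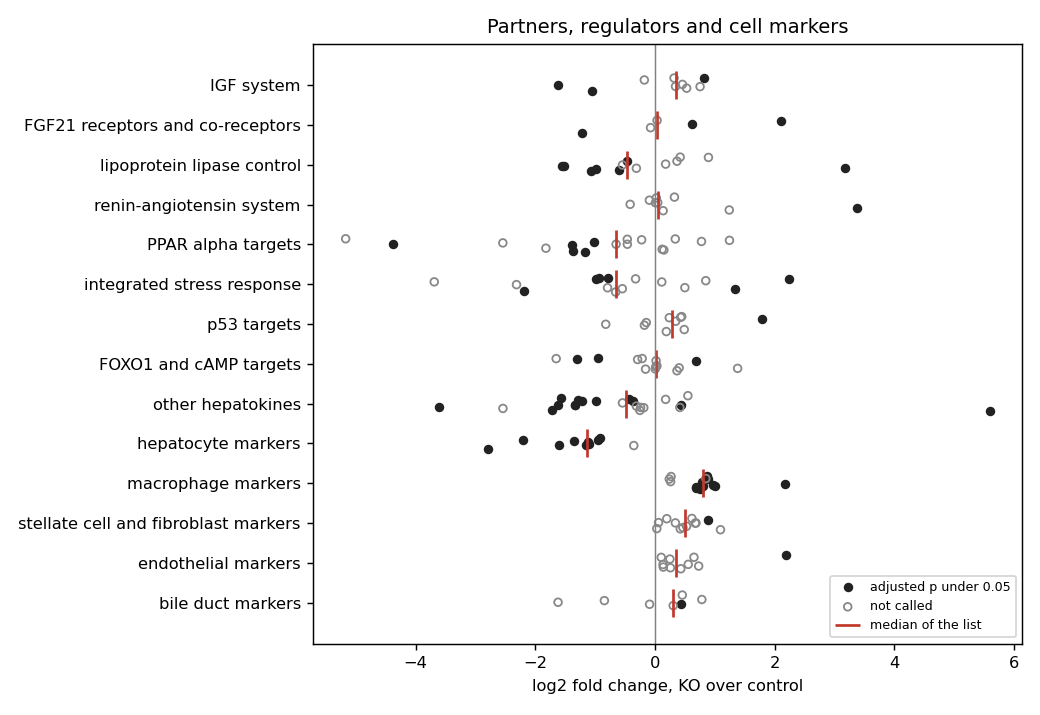
Log2 fold change, KO over control, of each tested gene of the 14 lists, with the 9 described genes left out; filled points passed an edgeR adjusted p of 0.05, open points did not, and red lines are list medians. Hepatocyte markers lie below 0 (median -1.14) and macrophage markers above it (median 0.80).

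The ChIP sample titles name RNA poll III while the series text names Lcmr1, so the protein precipitated is uncertain. The KO list holds 1309 regions and the control list 16995, each called within its own library, so a region missing from the KO list is not a measured loss at that gene. There is 1 library per genotype and no test. Folds over background are the authors' values and were read within a list only.

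Regions lay over 3 of the 9 genes in the KO list (Igfbp4, Angptl4 and Agt), where 4.26% of tested genes had one over the gene or the 1000 bases before it. In the control list they lay over 6, Igfbp1, Igfbp2, Igfbp4, Gdf15, Angptl4 and Agt, where 41.4% of tested genes had one. The control regions were long: over 5 of the genes they covered at least 50% of the gene, a limit chosen after the values were seen, against 1.47% of tested genes. In the KO list 1 gene, Angptl4, was covered to that extent, against 0.178% of tested genes. No region lay over Fgf21, Fgl1 or Lect2 in either list.

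Over Igfbp1 a single control region, chr11:7197690-7204459, covered 100% of the gene and ran past its end, with 10 summits. Its highest summit had a fold of 29.0, the 126th of 22793 in that list, and lay 4130 bases after the start of a gene of 4765 bases. The region begins 92 bases before the start, so it takes in the last 97 bases of the promoter window printed above. In the KO list no region overlapped Igfbp1, and the nearest lay just past its end, at chr11:7202689-7203060, with a fold of 5.87.

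Igfbp2 differed from the other binding protein genes in its ChIP regions. Control regions covered 1.83% of its 27972 bases, in 2 short regions of 228 and 284 bases with folds of 4.59 and 4.17, and none lay over the start. The KO list held none.

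Igfbp4 was covered for 2627 of its 13149 bases in the KO list, by 7 regions with folds up to 9.78, and for 97.2% in the control list, by 2 regions with folds up to 19.1. The highest summits lay 4484 bases after the start in the KO list and 4470 bases in the control list. A control region of 976 bases, chr11:99040899-99041874, spanned the start and the whole promoter window printed above, including its TATA box. No KO region lay over the start.

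Angptl4 was covered for 82.8% of its length in the KO list and for 96.4% in the control list, the highest folds being 11.3 and 21.3 within each list. Its start was spanned by a control region of 666 bases, and the nearest KO region began 95 bases after the start. The RNA level of Angptl4 did not pass the test between the genotypes. Agt was covered for 3.58% in the KO list and 72.9% in the control list, and its highest control fold, 12.5, lay 396 bases past the gene end. Gdf15 was covered for 79.4% in the control list, with a highest fold of 11.4, and had no region in the KO list.

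**Figure D5:**
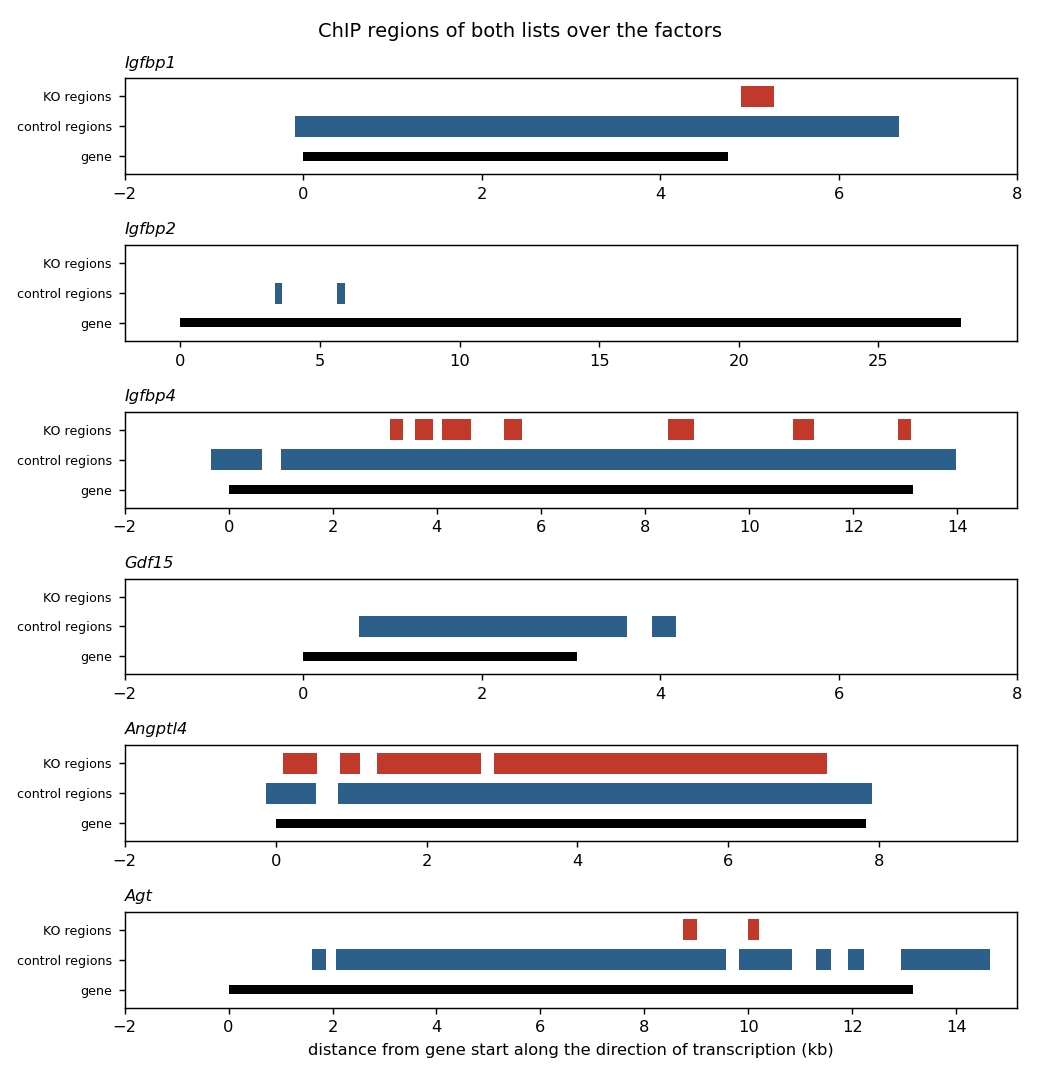
ChIP regions of the KO list (red, upper rows) and of the control list (blue, middle rows) over the 6 genes with a region, drawn by distance in kb from the gene start along the direction of transcription, with the gene in black. Control regions run along most of Igfbp1, Igfbp4, Gdf15, Angptl4 and Agt, Igfbp2 holds 2 short ones, and KO regions cover most of Angptl4 alone.

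No other gene of the table overlaps any of the 9, so no overlapping gene of the table adds reads to these counts. Transcripts absent from the table were not checked. Related genes lie beside a pair of them: Igfbp3 lies 3540 bases past Igfbp1 on the opposite strand, and Igfbp5 lies 5458 bases past Igfbp2, also on the opposite strand. Igfbp5 had 6.87 ± 3.20 CPM in KO libraries and 4.98 ± 2.97 CPM in control libraries (SD, n = 3) and did not pass (edgeR adjusted p = 0.578), while Igfbp2 beside it fell.

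The tested gene whose log2 CPM over the 6 libraries correlated best with each member is given as a description, since 6 libraries of 2 genotypes give many such genes. The closest to Igfbp2 was Serpina4-ps1 (Pearson's r = 0.9986), with 789 genes above 0.95. The closest to Igfbp4 was Cebpa (0.9992, 725 genes above 0.95), to Igfbp1 Brix1 (0.9989, 291 genes) and to Fgl1 Ppp1r15a (0.9962, 231 genes). Fewer genes followed the less regular patterns, with 88 above 0.95 for Gdf15, 80 for Lect2, 45 for Agt, 28 for Fgf21 and 14 for Angptl4. Their closest genes were Abca8a for Gdf15 (0.9909), Mzt1 for Lect2 (0.9939), Adam4 for Agt (0.9982), Srpk1 for Fgf21 (0.991) and Acaa1a for Angptl4 (0.9899).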

How the data were processed

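Per the submitters' processing notes, the RNA tools were HTSeq 0.6.0, HISAT2 2.1.0 and Bowtie2 2.2.3 on mm10, with no roles or strand setting named. The authors deposited whole-number counts for each Ensembl gene, a mean signal of scaled counts (not used here), a linear fold (ratio), its log2 and p-values. For ChIP the notes name BWA, SAMtools, MACS2, deepTools and DESeq2, and the authors deposited 1 list per library with a score, a fold (ratio) and -log10 p and q; no input is named. Here genes passing filterByExpr (minimum count 10, total 15) were scaled by TMM and tested with edgeR 4.0.16 in R 4.3.3 (two-sided quasi-likelihood test with robust fitting and no term but genotype, Benjamini-Hochberg over 15135 genes, threshold 0.05), after a check on simulated data. The SE is the absolute log2 fold change over the square root of F. Pearson's r used log2(CPM + 0.5) and ratios had 0.5 counts added. A ChIP region counted with at least 1 base over a gene or the 1000 bases before it. The 9 members and the lists were chosen with earlier results of these data known. Named were the members, Med19, the 2 genes of a list with the smallest adjusted p past the threshold, listed receptors, enzymes and regulators of a member, and the best-correlated gene; not all are printed, 1 gene of this rule is not reported here, and Igfbp5 was added as a neighbour after its values were seen. Promoter windows were kept to 250 bases before the start, and windows around summits were not searched because no genome was used here. Alternatives were RLE, upper-quartile and no factors, no filter, DESeq2 1.42.0, a replicate block, each library left out, 5 counts added to ratios, and other ChIP overlaps and thresholds. Libraries within a group differed beyond sampling noise (chi-square per degree of freedom 7.41 to 149.7).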

Additional observations from a re-analysis of the deposited data

How the results depend on the processing

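Igfbp2 and Igfbp4 fell under all 12 alternatives, Igfbp2 with log2 fold changes from -4.82 to -4.01 and Igfbp4 from -1.11 to -0.44. Scaled by library size alone, Fgf21 (0.20), Angptl4 (0.47) and Lect2 (0.19) turned sign, Agt rose (0.73), so that 1 member rose, and over all genes 7711 rose and 617 fell; of the list genes 74 rose and 24 fell, in place of 24 and 38. The same scaling turned Fgfr4 (0.52), Igfals (0.40), Angptl8 (0.059), Creb3l3 (0.37) and Foxo1 (0.38). Leaving out 1 library at a time, members that fell ranged from 2 to 6, genes that rose from 1119 to 2407 and genes that fell from 1104 to 2514. Log2 fold changes then ranged from -3.42 to -1.12 for Igfbp1, -1.31 to 0.53 for Fgf21, -2.03 to -1.13 for Gdf15, -0.50 to 0.39 for Angptl4, -2.27 to -0.56 for Fgl1 and -0.70 to -0.20 for Lect2. The difference in log2 ratio ranged from -2.12 to 0.33 for Gdf15 over Fgf21 and from -0.83 to 0.94 for Angptl4 over Fgf21. Ace ranged from -0.20 to 0.29 without 1 library and was at -0.0091 with the replicate block, Agtr1a from -0.028 to 0.23 and Fgfr4 from -0.16 to 0.032. A ChIP window of 10000 bases on both sides placed KO regions near 5 members in place of 3 and control regions near 8 in place of 6. The share of all tested genes was not counted for that window, so these counts have no background. DESeq2 gave no p for Igfbp1. Apart from library size and left-out libraries, no alternative run moved a member across the threshold; the cause of these changes was not tested. The labels used here do not state whether same-numbered libraries were prepared together, so a pairing is uncertain. Deviations of same-numbered libraries correlated at 0.126, 0.0505 and 0.112, each the best match for its number. The replicate block called 1713 genes as risen and 1755 as fallen, in place of 1905 and 1960, and 2 members as fallen. With the block Ren1 no longer passed (edgeR adjusted p = 0.0516), leaving 0 risen genes in its list, and Angptl8 passed at -0.53 (0.0290); no other named gene crossed the threshold. Low counts limit Fgf21, with 34 in its lowest library.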
